A study of Mus musculus with 14 samples.

Results

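The insulin-like growth factor 1 (IGF-1) axis was examined in mouse pancreatic stellate cells (PSCs) and in mouse livers through 10 genes. These were Igf1, the receptor gene Igf1r, the acid-labile subunit gene Igfals and the binding protein genes Igfbp1, Igfbp2, Igfbp3, Igfbp4, Igfbp5, Igfbp6 and Igfbp7. They were found by gene symbol. All 10 were among the 54532 genes listed for the livers, and 9 were among the 16481 genes listed for the PSCs, where Igfbp1 was not analysed here. The set was chosen on results of the same comparisons, that is, on the differences between Yoda1 and DMSO and between the liver groups, so the values of its members are given as a description and without p-values.

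IGF-1 is a secreted growth factor that acts through the receptor tyrosine kinase IGF1R on growth, survival and metabolism. Most circulating IGF-1 comes from the liver under the control of growth hormone, while fibroblasts and other stromal cells make it locally. IGF-binding proteins (IGFBPs) hold nearly all extracellular IGF-1, carry it in blood together with the acid-labile subunit, and limit or deliver it at the cell surface.

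PSCs are the fibroblast-like cells of the pancreas that store retinoids at rest and deposit matrix when activated. Mouse PSCs were cultured on Matrigel for 3 days and were treated with Yoda1, an agonist of the mechanically gated channel PIEZO1, at 25 µM or with its solvent DMSO. Each of 3 cell preparations received both treatments, which gave 3 libraries per treatment. The time from Yoda1 to RNA is 24 hours in the methods and 72 hours in a figure legend, and the strain of the PSC donors was not given in the sources used here. The livers came from mice aged 8 to 12 weeks and were collected 20 days after an injection into the tail of the pancreas. The injected KPCY cells are a pancreatic cancer line of the mouse that carries a yellow fluorescent protein. There were 2 WT livers, 3 TRPV4-KO livers and 3 livers of WT mice that received the TRPV4 antagonist GSK2193874 (GSK219) by gavage at 10 mg/kg per day. Mice called WT in the methods carried floxed Piezo1 alleles without Cre, and whether the 2 WT mice were given vehicle is not stated for these samples. TRPV4-KO mice carried the Trpv4-/- mutation in every host cell, whereas the injected KPCY cells did not carry it.

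The livers held 15567031 to 17395299 counts each, and the PSC libraries held 27312894 to 39070539 reads on listed genes. Trpv4 had 43 and 53 counts in WT livers, 15, 5 and 23 in TRPV4-KO livers, and 20, 30 and 36 in GSK219 livers, so the gene was lowest but not absent in the knockout libraries, and TRPV4-KO replicate 3 overlapped the GSK219 livers. Xist reads were found in 1 library of each liver group, which was replicate 1 among the WT livers and replicate 3 in both other groups. The other 5 livers carried reads of Y-linked genes. A fit that left out a library with Xist reads therefore also left its group with Y-linked libraries only. The part of this in the values of such fits was not tested. In the PSC libraries, 10 of 11 fibroblast and PSC markers were listed, with Col1a1, Acta2 and Pdgfrb among them. Gfap, whose protein was stained to monitor the purity of the human PSC cultures of the study, was not analysed here in mouse PSCs. All 5 islet markers, including Ins2, and all 6 duct markers, including Krt19, were also detected in the PSC libraries.

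In DMSO-treated PSCs, Igfbp7 was the most abundant of the 9 genes per unit of length, with 1194 ± 194 TPM (SD, n = 3), where TPM is the read count per base of gene length scaled to the same total in every library. Igfbp7 encodes a low-affinity IGF binder that also binds collagen and activin. Igfbp3, which encodes the main serum carrier of IGF-1, followed with 444 ± 107 TPM. Igfbp4, Igfbp6 and Igfbp2 had 149 ± 71.1, 130 ± 25.9 and 85.8 ± 58.8 TPM, and each of these neighbors in the order had overlapping ranges. Igf1 (25.5 ± 5.87 TPM) and Igf1r (22.8 ± 0.837 TPM) also overlapped, so ligand and receptor transcripts could not be ordered. Igfbp5 (1.36 ± 0.234 TPM) and Igfals (0.555 ± 0.263 TPM) were the lowest. With Yoda1, the order of the middle genes was different. Igfbp4 (317 ± 31.4 TPM) and Igfbp6 (262 ± 43.3 TPM) stood above Igfbp3 (179 ± 80.9 TPM), with overlapping ranges between neighbors, and Igf1 at 8.90 ± 2.14 TPM lay below Igf1r at 25.2 ± 0.604 TPM in all 3 preparations.

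The first question was how the ligand gene itself behaved when PIEZO1 was activated. Igf1 (ENSMUSG00000020053, chromosome 10 from 87858265 to 87937042 of GRCm38) had size-factor-normalized read counts of 2696, 2629 and 1850 with DMSO and 958, 728 and 625 with Yoda1 in preparations 1, 2 and 3. Every Yoda1 library was below every DMSO library, and the level was lower by 2.82-fold, 3.61-fold and 2.96-fold within the 3 preparations. The log2 fold change was -1.64 (SE 0.20), or 3.11-fold lower. A gene was called in limma when its adjusted p was below 0.05 and its level differed by over 1 on the log2 scale. This main fit had no term for the preparation, so the SEs, adjusted p and calls given for PSCs include the spread between preparations unless a replicate block is named. Igf1 was the only one of the 9 members called, beside 1.52% of the 15145 genes tested in either direction and 0.786% called lower. By the adjusted p alone, Igf1 and Igfbp6 passed, beside 4.66% of genes. Without DMSO replicate 1, DMSO replicate 2 or Yoda1 replicate 2, no member was called, beside 0.533%, 0.18% and 0.167% of genes in these fits, although the log2 fold change of Igf1 ran only from -1.81 to -1.50 when single libraries were dropped. With the preparation as a replicate block, 4 members were called, Igf1, Igfbp2 and Igfbp3 as lower (beside 1.32% of all genes) and Igfbp4 as higher (beside 1.66%), and 2.98% of genes were called in all.

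A pair of binding protein genes was lower together with Igf1. Igfbp2, which encodes a binding protein abundant in fetal life and in fasting, had normalized read counts of 2600, 1174 and 696 with DMSO and 635, 280 and 109 with Yoda1. The preparations differed widely, so that preparation 1 with Yoda1 was just below preparation 3 with DMSO, but within each preparation Yoda1 was lower by 4.09-fold, 4.20-fold and 6.39-fold. Its log2 fold change of -2.25 (SE 0.72) was the farthest from 0 of the members. This SE includes the wide spread between preparations, whereas the log2 differences within preparations were -2.03, -2.07 and -2.66. Igfbp3 had 12948, 16075 and 10492 with DMSO and 6476, 5727 and 2459 with Yoda1. The treatments did not overlap, and the ratio of DMSO to Yoda1 was 2.00, 2.81 and 4.27 in the 3 preparations. The log2 fold change of Igfbp3 was -1.53 (SE 0.37).

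Other binding protein genes were higher with Yoda1. Igfbp4, which encodes an inhibitory binding protein that is cleaved by the pappalysins, had normalized read counts of 9109, 6032 and 3519 with DMSO and 13403, 11544 and 11781 with Yoda1. The DMSO libraries were spread over a wide range and the Yoda1 libraries were close to each other, so the increase was 1.47-fold, 1.91-fold and 3.35-fold by preparation. The log2 fold change was 1.08 (SE 0.32). Igfbp6, whose product prefers IGF-2 over IGF-1, had 1571, 1413 and 1124 with DMSO and 2861, 2653 and 2139 with Yoda1. Its ratio of Yoda1 to DMSO was almost the same in every preparation (1.82, 1.88 and 1.90), with a log2 fold change of 0.90 (SE 0.15). Igfbp5, which encodes a binding protein of matrix and muscle, had 91.0, 70.7 and 71.7 with DMSO and 214, 474 and 78.6 with Yoda1. Here the treatments overlapped, because preparation 3 barely differed (1.10-fold) while preparation 2 was 6.71-fold higher, and the log2 fold change was 1.36 (SE 0.60). This Igfbp5 value was 0.74 without Yoda1 replicate 2 and 2.03 without Yoda1 replicate 3. Without Yoda1 replicate 3, 4 members were called, Igf1 and Igfbp3 as lower (beside 1.12% of genes) and Igfbp5 and Igfbp6 as higher (beside 0.756%), and 1.87% of genes were called in all.

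The receptor gene, Igfbp7 and Igfals overlapped between treatments. Igf1r had 3708, 3478 and 3765 with DMSO and 3545, 3771 and 3816 with Yoda1, a log2 fold change of 0.02 (SE 0.06). Igfbp7 had 12325, 12052 and 17102 with DMSO and 10691, 12012 and 14770 with Yoda1, a log2 fold change of -0.14 (SE 0.17). Igfals, a liver gene, was recovered from only 4, 13 and 14 reads with DMSO and 11, 15 and 40 with Yoda1, and its log2 fold change of 0.61 (SE 0.56) rested on these few reads. This Igfals value was 0.13 without Yoda1 replicate 3 and 0.91 without Yoda1 replicate 1. In all, 5 of the 9 members did not overlap between treatments, 2 higher and 3 lower, beside 30% of all genes tested (14.9% higher and 15.1% lower). The median log2 fold change was 0.02 over the 9 members and -0.01 over all genes.

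**Figure D1:**
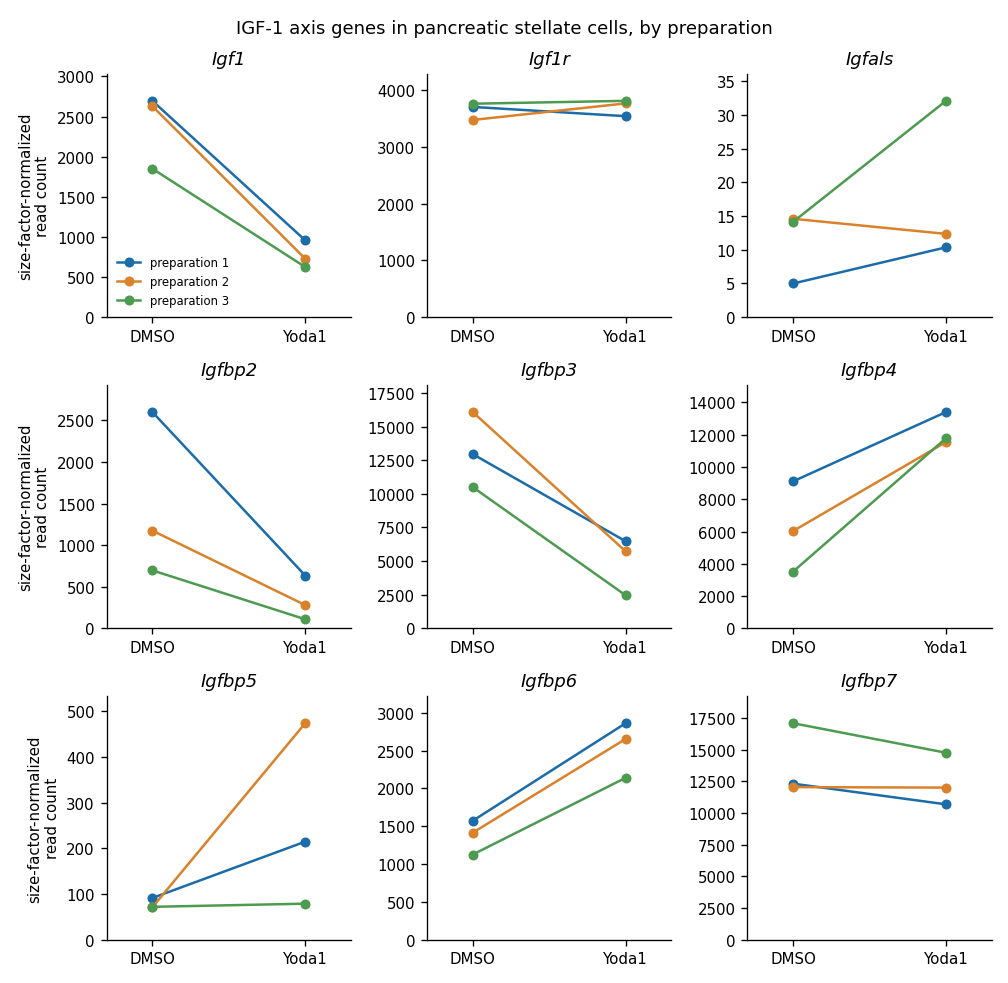
Size-factor-normalized read counts of the 9 IGF-1 axis genes listed for PSCs, with DMSO and with Yoda1, on linear axes from 0. Each line joins the libraries of 1 preparation. Igf1, Igfbp2 and Igfbp3 slope down and Igfbp4 and Igfbp6 slope up in all 3 preparations, while Igf1r and Igfbp7 are nearly level and Igfbp5 differs between preparations.

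The opposite directions left the summed IGFBP transcripts almost the same and altered their make-up. Summed over the 6 IGFBP genes listed for PSCs, the level was 2004 ± 56.0 TPM with DMSO and 1961 ± 12.3 TPM with Yoda1 (SD, n = 3 each). Igfbp3 made up 22.2 ± 5.48% of this sum with DMSO and 9.15 ± 4.14% with Yoda1. The share of Igfbp4 was 7.40 ± 3.34% with DMSO and 16.1 ± 1.58% with Yoda1, and that of Igfbp6 was 6.46 ± 1.17% and 13.4 ± 2.24%. The ranges of these 3 shares did not overlap between treatments, beside 30% of single genes tested. Igfbp2 had 4.23 ± 2.78% and 1.09 ± 0.867%, with overlapping ranges, and Igfbp7 held 59.7 ± 10.5% and 60.0 ± 8.52%. Because Igf1 was lower, the ratio of summed IGFBP TPM to Igf1 TPM was 81.8 ± 20.5 with DMSO and 229 ± 52.7 with Yoda1, and its lowest Yoda1 value of 175 lay above its highest DMSO value of 105. These are ratios of transcripts and do not measure bound or free protein.

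**Figure D2:**
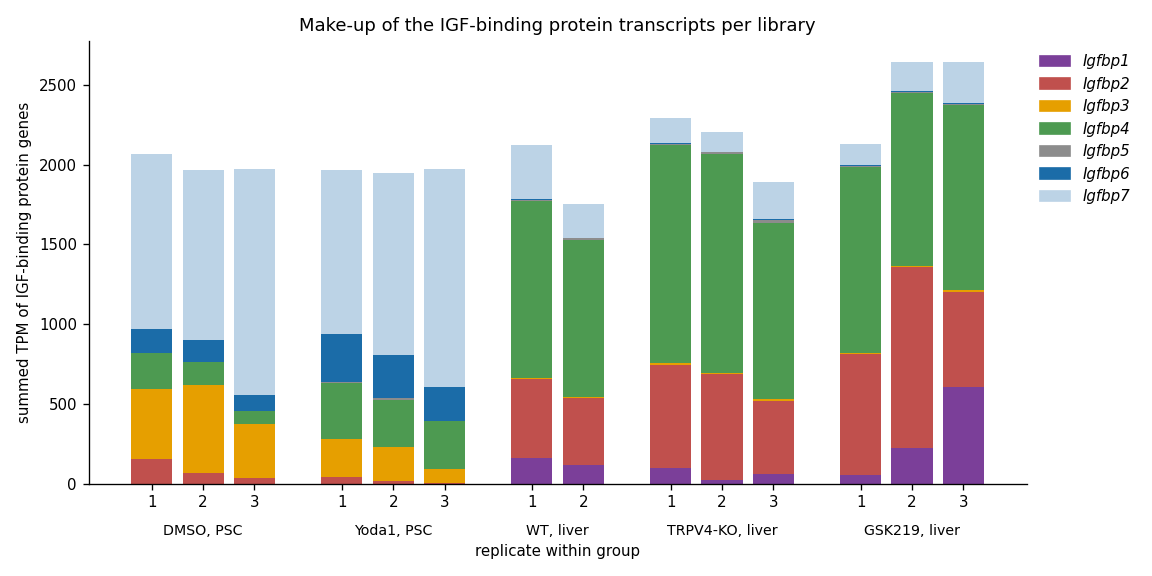
Stacked bars of the TPM of each IGF-binding protein gene in every library, grouped by treatment or genotype, with the replicate number below each bar. In PSCs the bars are about equally high and the bands of Igfbp3 and Igfbp4 exchange size with Yoda1, whereas in livers Igfbp4 and Igfbp2 form most of each bar and the band of Igfbp1 differs in height among the GSK219 livers. Igfbp1 was not analysed in PSCs.

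The proximal promoters are shown for the 5 members whose PSC treatments did not overlap, as the sequence context of genes that moved in opposite directions. Each is the 250 bases before the RefSeq start site in GRCm38.p6, written 5′ to 3′ on the gene's strand. They lie at chr10:87860861-87861110 (plus strand), chr1:72824230-72824479 (plus), chr11:7213924-7214173 (minus), chr11:99040994-99041243 (plus) and chr15:102143936-102144185 (plus). Capitals mark matches on either strand to TATAAA, the TATA box, to CCAAT, to GGGCGG, the GC box, to TGACTCA, the AP-1 site, and to the cAMP response element TGACGTCA. No matches overlap in these windows. The RefSeq start of Igf1 lies at 87861111, downstream of the start of the gene in the liver table, at 87858265. That of Igfbp6 lies at 102144186, upstream of the start of its gene at 102144362. Igfbp2 has 2 RefSeq windows, of which the one nearest to the start of its gene is shown. For Igfbp2 and Igfbp6, a short stretch after the RefSeq start was found in no GENCODE transcript of the gene, so their start sites are less certain.
Igf1 promoter: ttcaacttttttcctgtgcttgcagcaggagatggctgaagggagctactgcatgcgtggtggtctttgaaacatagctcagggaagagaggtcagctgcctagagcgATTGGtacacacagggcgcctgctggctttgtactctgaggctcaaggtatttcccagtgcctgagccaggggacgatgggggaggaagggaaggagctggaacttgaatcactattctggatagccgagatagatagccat
Igfbp2 promoter: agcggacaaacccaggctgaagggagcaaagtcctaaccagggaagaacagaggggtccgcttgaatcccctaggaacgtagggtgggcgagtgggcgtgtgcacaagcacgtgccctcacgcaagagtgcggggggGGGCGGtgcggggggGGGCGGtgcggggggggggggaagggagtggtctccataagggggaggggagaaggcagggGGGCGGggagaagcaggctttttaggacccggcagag
Igfbp3 promoter: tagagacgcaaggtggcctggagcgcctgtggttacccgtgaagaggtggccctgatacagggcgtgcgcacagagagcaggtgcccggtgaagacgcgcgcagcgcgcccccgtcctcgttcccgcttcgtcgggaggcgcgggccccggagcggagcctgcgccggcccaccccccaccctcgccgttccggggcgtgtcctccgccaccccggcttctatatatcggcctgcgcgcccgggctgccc
Igfbp4 promoter: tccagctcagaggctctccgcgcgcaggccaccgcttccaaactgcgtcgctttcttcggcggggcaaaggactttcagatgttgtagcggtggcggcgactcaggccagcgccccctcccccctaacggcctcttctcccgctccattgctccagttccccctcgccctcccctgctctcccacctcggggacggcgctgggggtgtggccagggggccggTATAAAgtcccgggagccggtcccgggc
Igfbp6 promoter: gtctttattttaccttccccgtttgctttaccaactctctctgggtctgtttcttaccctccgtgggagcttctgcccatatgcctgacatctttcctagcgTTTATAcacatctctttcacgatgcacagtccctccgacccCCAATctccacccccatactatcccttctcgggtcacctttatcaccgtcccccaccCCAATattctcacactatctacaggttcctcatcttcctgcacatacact
Of the 3 genes that were lower with Yoda1, Igf1 held 1 CCAAT match on the opposite strand, Igfbp2 held 3 GC boxes, and Igfbp3 held none of the motifs. Of the genes that were higher, Igfbp4 held a TATA box that starts 28 bases before the start site, and Igfbp6 held 2 CCAAT matches and a TATAAA match on the opposite strand. Among 32851 RefSeq windows of the same length, 12.4% held TATAAA, 33.8% held CCAAT and 32.7% held GGGCGG on either strand. The AP-1 letters were held by 4.46% and those of the cAMP response element by 1.55%. No window of the 5 genes held the AP-1 or cAMP response element letters. GC content was 67.2% for Igfbp2, 73.2% for Igfbp3 and 69.2% for Igfbp4, against 52.8% for Igf1 and 49.6% for Igfbp6, so it did not separate the lower from the higher genes.

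Markers of the cultured cells moved with treatment as well. The summed level of the 10 listed fibroblast and PSC markers was 26846 to 28951 CPM with DMSO (CPM is the count scaled to a common library total) and 14435 to 17617 CPM with Yoda1. Within the list, Acta2, the smooth muscle actin gene of activated stellate cells, was at 3557 to 3919 CPM with DMSO and 871 to 1604 CPM with Yoda1, whereas Pdgfra was at 79.9 to 114 CPM and 158 to 232 CPM. The 6 duct markers summed to 1439 to 1981 CPM and 1197 to 2675 CPM, and the 5 islet markers to 327 to 413 CPM and 312 to 441 CPM. The 5 listed endothelial markers summed to 50.1 to 61.4 CPM with DMSO and 34.2 to 41.3 CPM with Yoda1. This sum was mostly Kdr, at 37.2 to 55.7 CPM and 19.0 to 26.9 CPM, whereas Lyve1 was higher with Yoda1 in all 3 preparations, at 0.230 to 0.397 CPM and 0.870 to 1.74 CPM, and Pecam1 and Cdh5 overlapped between treatments. The 5 listed macrophage markers summed to 18.8 to 22.3 CPM with DMSO and 19.1 to 37.2 CPM with Yoda1. Among them Cd68, a lysosomal protein gene of macrophages, was higher with Yoda1 in all 3 preparations, at 5.86, 7.60 and 7.14 CPM against 8.54, 10.5 and 21.6 CPM. The others did not follow it. Ptprc was lower in all 3 preparations, with log2 differences of -0.32, -0.06 and -0.15. Csf1r, Vsig4 and Cd5l were lower in preparations 1 and 2 and higher in preparation 3. The 4 listed acinar markers summed to 7.51 to 34.3 CPM and 7.22 to 61.5 CPM. The part of these differences in the values of the IGF-1 axis genes was not tested. In bulk libraries such as these, fewer cells of a type and less RNA per cell cannot be told apart.

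Genes that act before and after IGF-1 were read from a list of 66 pathway genes, of which 65 were tested in PSCs. None was called in limma, in the fit without a term for the preparation. By the adjusted p alone, 2 were higher with Yoda1 and 0 lower, beside 2.19% of all genes higher. These were Mtor, the growth kinase downstream of IGF1R, with a log2 fold change of 0.37 (SE 0.05, adjusted p = 0.014), and Igf2bp2, which encodes an IGF-2 mRNA-binding protein, with 0.58 (SE 0.11, adjusted p = 0.041). Irs1, the docking protein of IGF1R, had a log2 fold change of -0.70 (SE 0.16, adjusted p = 0.065) and normalized read counts of 1683 ± 294 with DMSO and 1036 ± 156 with Yoda1. Its relative Irs2 had 0.08 (SE 0.08). Pappa2, which encodes a protease that cleaves IGFBP-3 and IGFBP-5, had -1.19 (SE 0.33, adjusted p = 0.099), and the pappalysin inhibitor gene Stc1 had 0.95 (SE 0.27, adjusted p = 0.10). With the preparation as a replicate block in limma, Pappa2 (adjusted p = 0.021) and the binding protein relative Igfbpl1 (log2 fold change -1.73, adjusted p = 0.024) were called lower. These were the only pathway genes called in that fit, beside 1.32% of all genes called lower and 2.98% in either direction. Igfbpl1 rested on few reads, 14, 17 and 33 with DMSO and 4, 4 and 20 with Yoda1.

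The growth hormone receptor gene Ghr and the alternative ligand and receptors differed little in PSCs. The log2 fold changes were -0.13 (SE 0.09) for Ghr, 0.16 (SE 0.23) for Igf2, 0.01 (SE 0.13) for the IGF-2 scavenger receptor Igf2r and 0.29 (SE 0.09, adjusted p = 0.11) for the insulin receptor Insr. Igf2 was a minor transcript, with normalized read counts of 149 ± 32.6 with DMSO against 2392 ± 470 for Igf1. Ptpn11, a phosphatase of growth factor signaling, had -0.28 (SE 0.06, adjusted p = 0.053). The growth hormone effectors Stat5a (0.19, SE 0.09) and Stat5b (-0.19, SE 0.06) had values of opposite sign. Of the secreted relatives, Esm1 had 0.79 (SE 0.36) and Crim1 -0.29 (SE 0.12), and of the proteases Htra3 had -0.60 (SE 0.24). With single libraries left out, they ran from 0.51 to 1.13 for Esm1, -0.38 to -0.19 for Crim1 and -0.79 to -0.36 for Htra3. The insulin genes had -0.12 (SE 0.13) for Ins1 and 0.14 (SE 0.12) for Ins2, the kinase regulator Tsc1 had 0.23 (SE 0.05, adjusted p = 0.062), and Igf2bp1 and Igf2bp3 had -0.49 (SE 0.24) and -0.32 (SE 0.19).

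In livers the question was whether loss or blockade of TRPV4 in tumor-bearing mice moved the endocrine source of IGF-1. The groups overlapped for Igf1, which had 595 and 580 CPM (normalized by TMM) in WT livers, 662, 613 and 478 CPM in TRPV4-KO livers and 539, 497 and 613 CPM in GSK219 livers. The fitted log2 fold changes were -0.01 (SE 0.16) for TRPV4-KO minus WT, -0.10 (SE 0.16) for GSK219 minus WT and -0.09 (SE 0.15) for GSK219 minus TRPV4-KO. Igfals, which encodes the subunit that holds IGF-1 in the circulating ternary complex, had 156 and 116 CPM in WT, 173, 198 and 155 CPM in TRPV4-KO and 172, 133 and 198 CPM in GSK219 livers. Its groups overlapped too, at 0.37 (SE 0.20) and 0.30 (SE 0.20) above WT on the log2 scale. Without WT replicate 2 the Igfals differences were 0.16 and 0.12, and without WT replicate 1 they were 0.58 and 0.53. Igf1r was scarce, with 40 to 140 counts per liver, and its log2 fold changes were -0.32 (SE 0.48), -0.17 (SE 0.48) and 0.15 (SE 0.43) in the same order of comparisons. The GSK219 values of Igf1r hung on GSK219 replicate 2, which had 140 counts beside 40 and 59, and without it the differences were -0.85 from WT and -0.52 from TRPV4-KO.

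Per unit of length, Igfbp4 led the liver as Igfbp7 led the PSCs. Igfbp4 had 1047 ± 85.4 TPM in WT (SD, n = 2), 1283 ± 153 TPM in TRPV4-KO and 1139 ± 44.1 TPM in GSK219 livers (SD, n = 3 each), and Igfbp2 had 459 ± 52.7, 590 ± 113 and 831 ± 274 TPM. The ranges of these neighbors were apart in WT and TRPV4-KO livers and overlapped in GSK219 livers. Igfals, Igfbp7 and Igf1 had 141 to 279 TPM on average, and the range of Igfbp1 overlapped theirs in GSK219 livers, where it ran from 55.8 to 603 TPM. Igfbp3, Igfbp5 and Igfbp6 were 2.55 to 12.4 TPM on average, and Igf1r stood last in every group at 0.632 to 0.814 TPM. In WT livers the neighbors Igfals, Igf1 and Igfbp1 could not be ordered, since their ranges overlapped. The 2 tables were normalized separately, so the liver and PSC levels stand side by side without a test.

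Igfbp1 was the most variable member in livers. It encodes an insulin-repressed, fasting-induced binding protein of hepatocytes. Its counts were 1542 and 1256 in WT livers, 1023, 240 and 586 in TRPV4-KO livers, and 574, 2162 and 5720 in GSK219 livers. The TRPV4-KO livers lay below both WT livers, and the GSK219 livers reached from below to above them. The SD of its log2 CPM over the 8 livers was 1.36, against 0.16 for Igf1. The log2 fold change was -1.15 (SE 0.93) for TRPV4-KO minus WT, 1.01 (SE 0.97) for GSK219 minus WT and 2.16 (SE 0.88) for GSK219 minus TRPV4-KO. Without GSK219 replicate 3, the GSK219 differences were -0.02 from WT and 1.13 from TRPV4-KO. The TRPV4-KO difference from WT was -1.77 without TRPV4-KO replicate 1 and -0.77 without TRPV4-KO replicate 2. Time of day and feeding state at collection were not given in the sources used here.

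Igfbp2 and Igfbp4, the abundant binding protein genes of the liver, were highest in different groups. Igfbp2 had 357 and 322 CPM in WT, 518, 517 and 328 CPM in TRPV4-KO, and 595, 810 and 413 CPM in GSK219 livers. The GSK219 livers were all above WT, with a log2 fold change of 0.84 (SE 0.30), while TRPV4-KO replicate 3 lay within the WT range and the TRPV4-KO difference was 0.42 (SE 0.30). Without GSK219 replicate 2, the GSK219 difference from WT was 0.57. Igfbp4 had 1903 and 1799 CPM in WT, 2611, 2568 and 1890 CPM in TRPV4-KO, and 2185, 1858 and 1911 CPM in GSK219 livers. Each group overlapped another, at 0.35 (SE 0.17) for TRPV4-KO and 0.10 (SE 0.17) for GSK219 minus WT.

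The remaining binding protein genes were Igfbp5, Igfbp3, Igfbp6 and Igfbp7. Igfbp5 had 316 and 314 counts in WT, 441, 401 and 653 in TRPV4-KO, and 368, 187 and 214 in GSK219 livers. TRPV4-KO livers were above both other groups, with log2 fold changes of 0.69 (SE 0.31) over WT and -0.96 (SE 0.27) for GSK219 minus TRPV4-KO, and GSK219 overlapped WT at -0.27 (SE 0.30), or -0.65 without GSK219 replicate 1 and -0.07 without GSK219 replicate 2. Igfbp3 had 108 and 134 counts in WT, 151, 154 and 280 in TRPV4-KO, and 132, 155 and 165 in GSK219 livers. In CPM both other groups were above WT, by 0.72 (SE 0.26) and 0.34 (SE 0.26) on the log2 scale, and without TRPV4-KO replicate 3 the first value was 0.43. Igfbp6 had 31 and 28 counts in WT, 37, 25 and 35 in TRPV4-KO, and 17, 26 and 12 in GSK219 livers. In CPM the GSK219 livers were the lowest, by -0.66 (SE 0.39) from WT and -0.83 (SE 0.35) from TRPV4-KO, on 12 to 37 counts per liver. In TPM the groups overlapped, with GSK219 replicate 2 at 3.65 above WT replicate 2 at 3.55 and TRPV4-KO replicate 2 at 3.44. Without GSK219 replicate 3, the Igfbp6 difference from WT was -0.42. Igfbp7 had 161 and 107 CPM in WT, 79.9, 62.8 and 108 CPM in TRPV4-KO, and 70.4, 87.2 and 116 CPM in GSK219 livers, with WT replicate 1 the highest and the groups overlapping at -0.68 (SE 0.28) and -0.56 (SE 0.28) from WT. Without WT replicate 1, these Igfbp7 differences were -0.38 and -0.23.

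**Figure D3:**
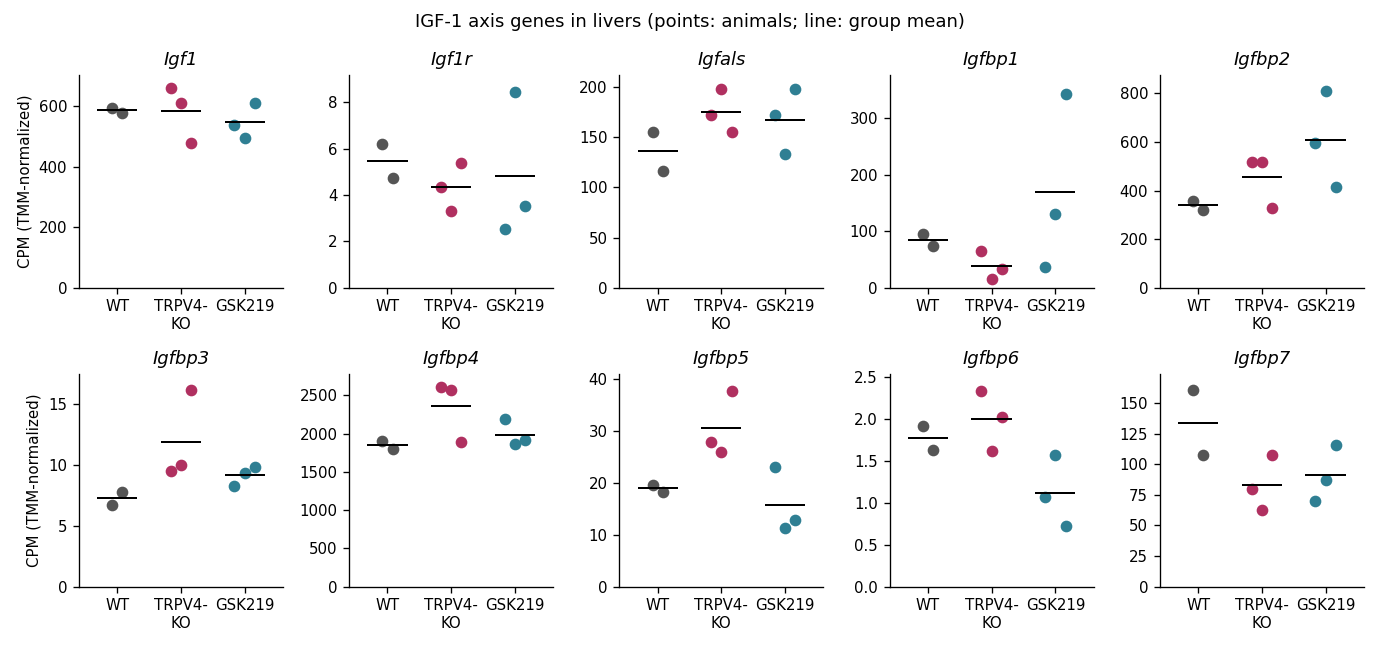
TMM-normalized CPM of the 10 genes in the livers, on linear axes from 0, with a point per animal and a line at the group mean. Igf1 sits between 478 and 662 CPM in all groups, whereas Igfbp1 spreads from 15.5 to 342 CPM and differs most within the GSK219 group.

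By edgeR's quasi-likelihood test, none of the 10 members was called in any liver comparison under the same limits. The share of all 15118 genes called was 0.265% for TRPV4-KO minus WT, 0% for GSK219 minus WT and 0.0992% for GSK219 minus TRPV4-KO. For GSK219 minus WT, 1242 genes had an unadjusted p under 0.05, and DESeq2 called 73 genes. Groups did not overlap for 3 members between TRPV4-KO and WT (Igfbp3 and Igfbp5 higher, Igfbp1 lower), beside 33.2% of all genes (15.5% higher and 17.7% lower). They did not overlap for 3 members between GSK219 and WT (Igfbp2 and Igfbp3 higher, Igfbp6 lower), beside 27.3% (11.7% higher and 15.6% lower). For GSK219 against TRPV4-KO, 2 members did not overlap (Igfbp5 and Igfbp6 lower), beside 10.2% in either direction and 5.85% lower. Overlap was read in normalized CPM, and for Igfbp6 both separations were absent in TPM. The median log2 fold change of the 10 members was 0.26, 0.00 and -0.08 in these comparisons, and that of all genes was 0.01, 0.00 and -0.01. The comparisons share groups and are not independent of each other.

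Summed over the 7 IGFBP genes, livers held 1941 ± 260 TPM in WT (SD, n = 2), 2128 ± 212 TPM in TRPV4-KO and 2475 ± 295 TPM in GSK219 livers (SD, n = 3 each). WT spanned 1757 to 2125 TPM, and only GSK219 lay above WT, from 2134 TPM. Igfbp4 made up 54.1 ± 2.86%, 60.2 ± 1.93% and 46.6 ± 7.09% of the sum, and Igfbp2 23.7 ± 0.464%, 27.5 ± 2.93% and 33.7 ± 10.2%. The summed IGFBP TPM per Igf1 TPM was 13.1 ± 0.968, 15.0 ± 0.167 and 17.6 ± 2.42. The 3 groups did not overlap, by narrow gaps: WT reached 13.8, TRPV4-KO ran from 14.8 to 15.1 and GSK219 began at 15.9. Of single genes, 33.2% did not overlap between TRPV4-KO and WT, 27.3% between GSK219 and WT and 10.2% between GSK219 and TRPV4-KO. The ratio was not tested. In PSCs treated with DMSO the same ratio was 81.8, without Igfbp1.

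Cell type markers differed between the liver groups beside these values. The 8 hepatocyte markers summed to 61466 to 69201 CPM in WT, 83945 to 103143 CPM in TRPV4-KO and 79775 to 91569 CPM in GSK219 livers. The 8 Kupffer cell and macrophage markers summed to 1419 to 1570, 383 to 855 and 407 to 969 CPM, and the 9 neutrophil markers to 59.8 to 71.5, 1.14 to 6.89 and 2.27 to 6.16 CPM. The 11 fibroblast markers summed to 396 to 596, 142 to 318 and 188 to 297 CPM, and all 5 islet markers were at 0 in every liver. The 7 hepatic stellate cell markers summed to 157 to 179, 62.4 to 140 and 98.9 to 154 CPM. In these sums WT livers were lowest for hepatocyte markers and highest for leukocyte, fibroblast and hepatic stellate cell markers, and the part of this in the member values was not tested. With a term for the sex reads of each library, Igfbp2 was 0.28 and 0.69 and Igfbp7 -0.59 and -0.46 from WT in TRPV4-KO and GSK219 livers.

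Of the 66 pathway genes, 54 were tested in livers and none was called in edgeR in any comparison. Socs3, a feedback inhibitor of cytokine and growth hormone signaling, had 100 ± 19.7 CPM in WT (SD, n = 2), 36.2 ± 14.5 CPM in TRPV4-KO and 38.8 ± 11.1 CPM in GSK219 livers (SD, n = 3 each). The log2 fold changes from WT were -1.46 (SE 0.35, adjusted p = 0.12) and -1.37 (SE 0.35, adjusted p = 0.45). Htra3, which encodes a serine protease with an IGFBP-like domain, had 9.90 ± 3.94, 2.28 ± 0.735 and 2.00 ± 1.03 CPM, with -2.11 (SE 0.49, adjusted p = 0.12) and -2.30 (SE 0.49, adjusted p = 0.39). DESeq2 called both genes lower in both groups, with adjusted p = 0.0021 and 0.020 for Socs3 and 0.0021 and 0.0022 for Htra3. Beside them, DESeq2 called 1.79% of all genes (1.35% lower) for TRPV4-KO minus WT and 0.271% (0.233% lower) for GSK219 minus WT. Ghr, which links growth hormone to Igf1, had 410 ± 71.4, 518 ± 101 and 467 ± 62.8 CPM, with 0.34 (SE 0.20) and 0.19 (SE 0.20) from WT. These Ghr values were 0.16 and 0.03 without WT replicate 1 and 0.52 and 0.38 without WT replicate 2. Insr had 0.02 (SE 0.16) in both, and Igf2r 0.13 (SE 0.13) and 0.06 (SE 0.13). Igf2 was near 0 in all livers, with a highest value of 0.116 CPM, and was not tested.

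Downstream of the receptor, Irs1 had log2 fold changes of 0.36 (SE 0.31) and 0.54 (SE 0.31) from WT in TRPV4-KO and GSK219 livers. These Irs1 values were 0.06 and 0.26 without WT replicate 1 and 0.71 and 0.91 without WT replicate 2. Irs2, the insulin-responsive docking protein of liver, had 46.8 ± 0.870 CPM in WT, 32.0 ± 22.5 CPM in TRPV4-KO and 63.6 ± 15.0 CPM in GSK219 livers, and differed by 0.99 (SE 0.44, adjusted p = 0.85) between GSK219 and TRPV4-KO. Without TRPV4-KO replicate 3, this difference was 1.74 (adjusted p = 0.015 by edgeR). Grb10, an adaptor that restrains IGF1R and insulin receptor signaling, had -0.82 (SE 0.32, adjusted p = 0.25) and -0.94 (SE 0.32, adjusted p = 0.54) from WT, or -0.54 and -0.65 for Grb10 without WT replicate 1. Its relative Grb14 had 0.60 (SE 0.13, adjusted p = 0.31) for GSK219 minus TRPV4-KO. Foxo3 had 0.45 (SE 0.18) for TRPV4-KO minus WT, or 0.19 without WT replicate 1 and 0.74 without WT replicate 2, and Htra1 had -0.55 (SE 0.29) and -0.78 (SE 0.29) from WT in the 2 groups.

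The PSC and liver differences of the members stand side by side here. Igf1 was 3.11-fold lower in Yoda1-treated PSCs, and its group means were 588, 584 and 550 CPM in WT, TRPV4-KO and GSK219 livers. Igfbp3 was lower with Yoda1 in PSCs (-1.53) and higher than WT in both TRPV4-KO (0.72) and GSK219 livers (0.34). Igfbp2 was lower in PSCs (-2.25) and higher than WT in GSK219 livers (0.84). Igfbp5 had positive values in PSCs (1.36, or 0.74 without Yoda1 replicate 2 and 2.03 without Yoda1 replicate 3) and in TRPV4-KO livers (0.69) and a negative value in GSK219 livers (-0.27). Igfbp7 had negative values in PSCs (-0.14) and in both liver groups (-0.68 and -0.56). The PSC comparison activates PIEZO1 in cultured cells and the liver comparisons remove or block TRPV4 in whole mice, so the values were not compared by a test.

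**Figure D4:**
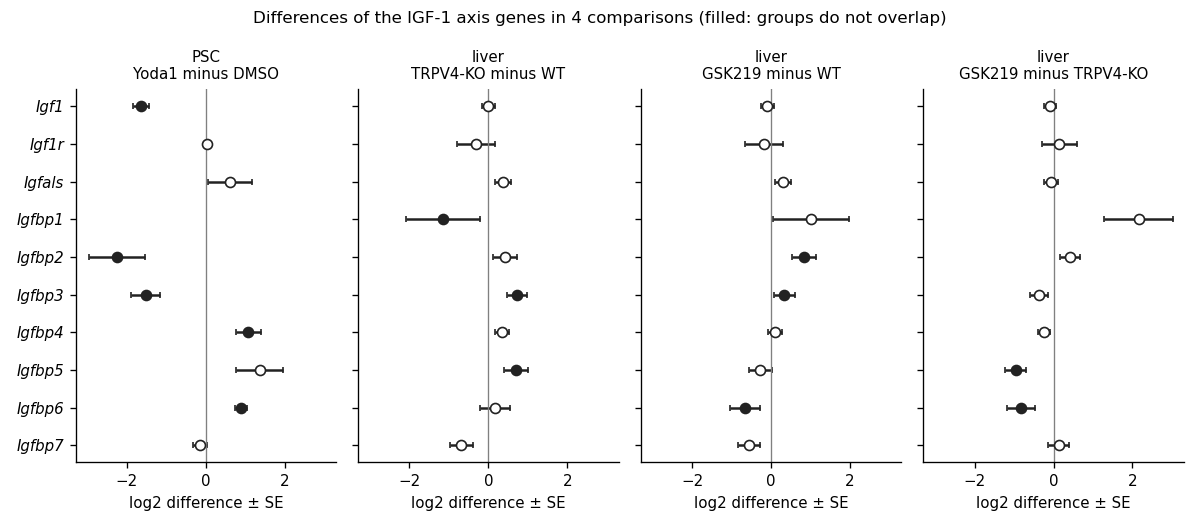
Log2 differences of the 10 genes with their standard errors in the PSC comparison and in the 3 liver comparisons, as fitted by limma for PSCs and edgeR for livers. Filled points mark genes whose groups do not overlap. In PSCs the points reach from -2.25 for Igfbp2 to 1.36 for Igfbp5 (0.74 without Yoda1 replicate 2 and 2.03 without Yoda1 replicate 3), and in livers only Igfbp1 lies farther than 1 from 0.

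Some of the binding protein genes are neighbors in the genome. Igfbp2 and Igfbp5 lie on chromosome 1 on opposite strands, 5457 bases apart, at 72824503 to 72852474 and 72857932 to 72874884. In PSCs with Yoda1 they had log2 fold changes of opposite sign, -2.25 and 1.36, the latter between 0.74 and 2.03 with single Yoda1 libraries left out. Igfbp1 and Igfbp3 lie on chromosome 11, at 7197782 to 7202546 and 7206086 to 7213923, again on opposite strands, with 3539 bases between them. In TRPV4-KO livers Igfbp1 was lower than in WT (-1.15) and Igfbp3 higher (0.72). Igfbp4 (chromosome 11 from 99041244 to 99054392), Igfbp6 (chromosome 15 from 102144362 to 102149511) and Igfbp7 (chromosome 5 from 77349240 to 77408041) stand apart from these pairs. Igf1 overlaps the antisense gene Igf1os, and Igfbp7 overlaps Polr2b and Gm34648 on the other strand, and whether the counting used strand is not given in the sources used here.

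The genes most like the 2 most variable members were found by the root mean square difference of log2 values after centering each gene on its own mean. In the 6 PSC libraries, the 5 genes nearest to Igfbp2 were Slc1a6, Scel, Myh11, Pmp2 and Mylk, with differences from 0.37 to 0.53. Myh11 and Mylk encode the heavy chain and the light chain kinase of smooth muscle myosin. Myh11 had normalized read counts of 3650, 2288 and 2420 with DMSO and 1178, 733 and 364 with Yoda1, lower with Yoda1 in all 3 preparations. In the 8 livers, the 5 genes nearest to Igfbp1 were Troap, Iglv1, Arntl, Eps8l1 and Cdkn1a, with differences from 0.53 to 0.68. Arntl, which encodes a core transcription factor of the circadian clock, had 4.21 and 6.70 CPM in WT, 2.47, 2.33 and 4.28 CPM in TRPV4-KO, and 2.64, 7.01 and 21.5 CPM in GSK219 livers. Cdkn1a, the cell cycle inhibitor p21, had 8.54 and 9.27 CPM in WT, 2.97, 0.907 and 3.18 CPM in TRPV4-KO, and 1.32, 3.62 and 16.2 CPM in GSK219 livers. Arntl and Cdkn1a were highest in GSK219 replicate 3, as Igfbp1 was, and so were Troap and Iglv1, which were very low, at 0.0648 to 1.14 CPM and 0.0648 to 2.81 CPM. Eps8l1 was highest in WT replicate 1, at 6.87 CPM against 6.34 CPM in GSK219 replicate 3.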

How the data were processed

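RNA-Seq was analyzed for 8 livers and 6 PSC libraries. For the livers, the authors deposited raw counts of reads per gene with coordinates that match GRCm38. The deposited PSC values are a signal, the gene count divided by a library's size factor. That table also holds the authors' fold changes, standard errors, test statistics and p-values, which were left out. All 98886 PSC values (100%) were whole multiples of 1 step per library within 0.02 read, so reads were recovered. The submitters' processing notes name HISAT2 2.0.5 and Trim Galore, and the counting tool and build were not given in the sources used here. The liver table has 7 more count columns that match no sample here, and these stayed out.

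Groups followed the labels. No test for these files was found in the methods. Liver counts were fitted in edgeR 4.0.16 (R 4.3.3) with TMM, its filter on low counts (minimum count 10) and the robust quasi-likelihood test, all 8 livers together. edgeR had been planned for the PSCs too, but since their values are normalized, limma 3.58.1 (trend and robust) was run on log2(value + 1) for genes that reached 10 in 3 or more libraries. Fold changes are on that scale, and the main PSC fit had no term for the preparation. Adjusted p is Benjamini-Hochberg over all genes tested, and a gene was called when this was below 0.05 and the fitted difference was over 1 on the log2 scale. TPM used the gene lengths of the liver table, which cover 16286 of 16481 PSC genes. Markers and TPM of PSCs used the recovered reads. Same-numbered PSC libraries come from 1 preparation by their labels and deviated together (correlations across genes 0.43, 0.26 and 0.53). Liver replicate numbers pair nothing. Reads carry no molecular identifiers, so copies of 1 molecule cannot be told from separate molecules. Depth therefore sets only a lower limit on the counting error. No replicates were near-identical. Where separate cultures or animals are not stated, p-values measure the spread between these samples.

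The 10 members and all lists were chosen with earlier results of these data known. Named pathway genes are those called and otherwise the 3 with the smallest p in each sublist of a comparison, plus Igf2, Igf2r, Insr, Ghr, Irs1 and Irs2. A pathway gene that this rule names is not reported here. The most alike genes are the 5 nearest to the most variable member of each data set. Col1a1, Acta2, Pdgfra, Pdgfrb, Ins2, Krt19, Gfap, Kdr, Lyve1, Pecam1, Cdh5, Cd68, Ptprc, Csf1r, Vsig4 and Cd5l were named after their values were seen. Promoters are RefSeq sequences of GRCm38.p6, found for all 10 members. In simulated data the steps recovered 21.0%, 78.0% and 94.5% of 2-, 4- and 8-fold changes in the liver design of TRPV4-KO minus WT (14805 genes), and 48.1%, 100% and 100% in the PSC design (15008 genes). A 2-fold change lies at the limit of a call, which alone keeps its recovery low. The simulated libraries were drawn independently, with no effect shared within a preparation and with the typical spread of genes of like level. Genes with a wider spread can be missed, as Igfbp2 was not called in PSCs at 4.77-fold lower. Alternatives were DESeq2 1.42.0, other scalings, pseudocounts and filters, a replicate block, a term for sex reads and each library left out. A constant prior variance in limma was chosen after seeing the data. Figures were drawn with matplotlib 3.10.9.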

Additional observations from a re-analysis of the deposited data

How the results depend on the processing

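Leaving out 1 library in turn moved the number of genes called between 25 and 280 in PSCs, 3 and 722 for TRPV4-KO minus WT, 0 and 2 for GSK219 minus WT and 8 and 79 for GSK219 minus TRPV4-KO (230, 40, 0 and 15 with all libraries). In PSCs it moved members called between 0 and 4 and pathway genes called between 0 and 1. In livers, members called stayed at 0 under every alternative run, and pathway genes called moved between 0 and 4 for TRPV4-KO minus WT, 0 and 0 for GSK219 minus WT and 0 and 1 for GSK219 minus TRPV4-KO, the highest values being those without TRPV4-KO replicate 3.

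With the replicate block in PSCs, 452 genes, 4 members and 2 pathway genes were called, and it changed no other PSC call of a member. At an adjusted p alone, the numbers were 705, 2 and 2, and a constant prior variance gave 153 genes. In livers the replicate block, whose numbers only name the samples, gave 429 genes for TRPV4-KO minus WT and 9 for GSK219 minus WT and 0.19 for Igfbp3 in GSK219 minus WT, and the correlations of same-numbered livers ran from -0.48 to 0.58. DESeq2 called 482, 73 and 89 genes in the 3 liver comparisons, no filter on low counts 140, 8 and 38, and a term for sex reads 325, 4 and 34. DESeq2 called 2 pathway genes in each comparison with WT, and the unfiltered fit and the term for sex reads called 1 each, Htra3, for TRPV4-KO minus WT. Pseudocounts of 0.1 and 10, no filter, TMM scaling and edgeR on recovered reads called Igf1 alone among the PSC members. Among members with all libraries kept, only Igf1 in TRPV4-KO minus WT changed sign, to 0.011 with the block, 0.0050 by DESeq2 and 0.027 without a filter. With single libraries left out, values of Igf1, Igf1r, Igfals and Igfbp7 changed sign in 1 or more comparisons, and Igfbp1 in GSK219 minus WT went from 1.01 to -0.016 without GSK219 replicate 3.

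Signs turned for pathway genes close to 0 or with few counts. Insr in GSK219 minus TRPV4-KO was 0.0048 by DESeq2, 0.0068 with RLE and 0.0061 without a filter. With the term for sex reads, Crim1 was -0.034 (TRPV4-KO minus WT), Esm1 -0.091 and Insr -0.0049 (GSK219 minus WT). With single libraries left out, PSC values ran from -0.032 to 0.33 for Igf2, -0.098 to 0.11 for Igf2r and -0.23 to 0.032 for Ins1. For TRPV4-KO minus WT they ran from -1.32 to 0.52 for Adam12, -0.24 to 1.85 for Esm1, -0.070 to 0.27 for Crim1, -0.026 to 0.28 for Igf2r and -0.028 to 0.084 for Insr. For GSK219 minus WT they ran from -1.03 to 0.93 for Adam12, -1.19 to 1.48 for Esm1, -0.47 to 0.17 for Kazald1, -0.075 to 0.24 for Igf2r and -0.15 to 0.12 for Insr. For GSK219 minus TRPV4-KO they ran from -0.38 to 0.75 for Adam12, -1.65 to 0.13 for Esm1, -0.48 to 0.18 for Htra3, -0.16 to 0.11 for Insr, -0.020 to 0.42 for Irs1 and -0.027 to 0.60 for Kazald1. The cause of these changes was not tested.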

Other observations

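In livers, Igfbp7 was highest in the library with Xist reads in each group, at 161 against 107 CPM in WT, 108 against 79.9 and 62.8 CPM in TRPV4-KO and 116 against 70.4 and 87.2 CPM in GSK219 livers. Igfbp2 was lowest in that library in TRPV4-KO (328 CPM) and GSK219 (413 CPM) livers but not in WT (357 against 322 CPM). With 1 such library per group and the pattern noticed in these values, no test was made.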
